A study of Homo sapiens with 3 samples.

Results

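The genes described here are 6 genes of the cascade that carries growth signals from RAS to ERK, namely HRAS, NRAS, BRAF, MAP2K1, MAP2K2 and MAPK3. They were listed by name, with earlier results of these data known, and are 6 of the 20163 protein-coding genes that GENCODE release 44 places on chromosomes 1 to 22, X and Y of GRCh37, the nuclear sequence of hg19. Other genes of the same families were not analysed here. Where ETS1 sat on the genome was mapped by ChIP-Seq, the sequencing of DNA recovered with an antibody, in SCC25, an established cell line of tongue squamous carcinoma. All 3 ChIP samples came from untreated cells of this single line, with no other genotype, treatment or time point. Their labels differed only in the antibody against ETS1, which was C20 in 2 samples and 501A in 1. The authors describe 3 independent experiments, so that antibody and experiment could not be told apart. Both antibodies are polyclonal. The authors combined the samples into 1 consensus list of 26970 peaks, of which 26961 lay on the chromosomes above. For each peak the list holds its position alone and neither a height nor a value per sample, so that no spread between replicates could be computed, the antibodies could not be compared, and the depth behind a peak is unknown. Shares over many genes or peaks are therefore given with 95% Wilson intervals, which cover counting error only. A peak list holds no expression values, and the labelled cell type could not be checked against markers.

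In this cascade a growth factor receptor loads a RAS protein (HRAS, NRAS) with GTP, RAS recruits a RAF kinase (BRAF) to the membrane, RAF phosphorylates the MEK kinases (MAP2K1 and MAP2K2, encoding MEK1 and MEK2), and MEK phosphorylates the ERK kinases, of which MAPK3 encodes ERK1. Mutations of RAS and RAF genes that lock the cascade in its active state are common in human cancers. ETS1 is a transcription factor that recognises the DNA core GGAA and is itself a substrate of ERK, so the genes of the cascade lie upstream of the factor whose binding was mapped.

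An ETS1 peak lay at a transcription start site (TSS) of 5 of the 6 genes, that is, with its midpoint within 500 bp of a TSS of any annotated transcript. Over all protein-coding genes the share was 53.1% (95% Wilson interval 52.4 to 53.8%, 10705 of 20163). MAPK3 was the gene without one. Not all of these peaks were at the main promoter. The start of the canonical transcript, the single representative transcript GENCODE marks for a gene, lay inside a peak in 4 genes (HRAS, NRAS, BRAF and MAP2K1), against 52.2% of all genes with such a transcript (51.5 to 52.9%, 10379 of 19881). A midpoint within 500 bp of that start was found in 3 (NRAS, BRAF and MAP2K1), against 46.7% (46.0 to 47.4%). With 6 genes, the last 2 counts are close to the share of all genes. The first was not tested against its share and is too small a count to set apart from it. It takes in HRAS and MAP2K2 only through starts other than the canonical one. MAP2K2 and MAPK3 were the genes whose main start no peak reached. The plot of peaks around the canonical TSS shows these differences.

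**Figure D1:**
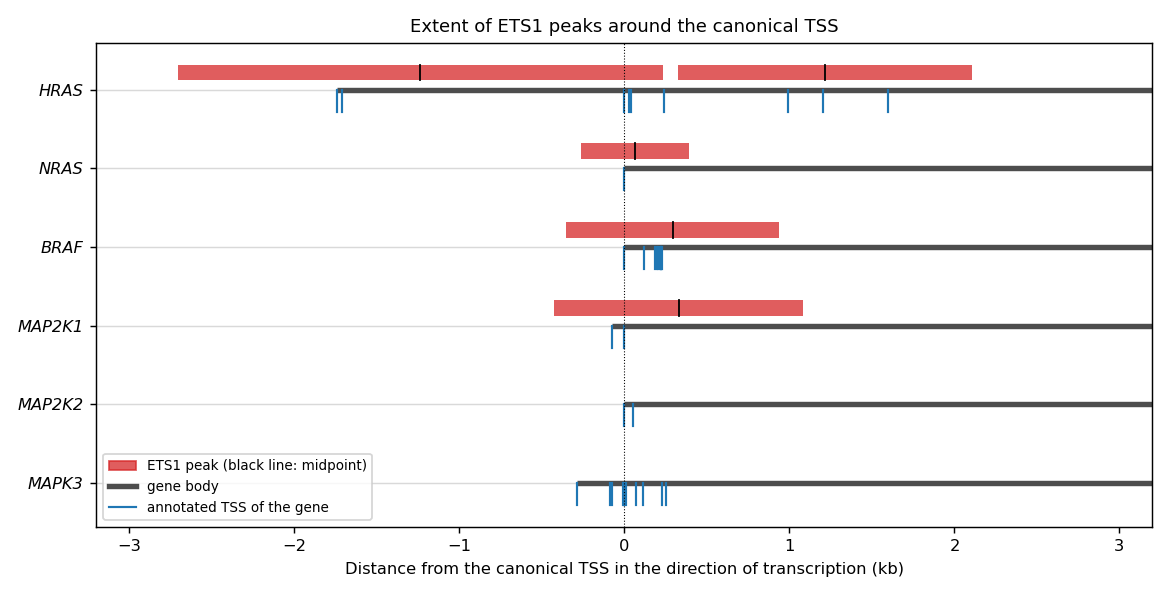
ETS1 peaks (red bars, with a black line at the midpoint) around the canonical TSS of each gene, in kb in the direction of transcription, above the gene body (grey) and its annotated TSSs (blue ticks). Peaks span the canonical TSS of HRAS, NRAS, BRAF and MAP2K1, the HRAS promoter peak reaches 2706 bp upstream, and no peak is drawn for MAP2K2 or MAPK3.

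Sequences are shown for the stretches on which the comparison of these promoters turns: the ETS sites under the NRAS and BRAF peaks, the bases just upstream of the canonical TSS of HRAS, BRAF and MAP2K1, which have a peak there, and the corresponding bases of MAP2K2, where there was none. The AP-1 motif near the centre of the MAP2K2 peak and the ETS site of MAPK3, which lay in no peak, are shown beside them. All were read from GRCh37, 5′ to 3′ on the strand of the gene. Capitals mark the longer ETS site CCGGAA, which appears as TTCCGG when it lies on the opposite strand, in the NRAS, BRAF exon 1 and MAPK3 lines. In the upstream lines they mark the core GGAA (TTCC on the opposite strand), and in the MAP2K2 intron 3 line the AP-1 motif TGANTCA.
NRAS TSS and start of exon 1, chr1:115259370-115259399: agcgggcggggCCGGAAgtgccgctccttg
NRAS exon 1, chr1:115259331-115259360: gttcatggcggTTCCGGggtctccaacatt
HRAS upstream, chr11:535577-535726: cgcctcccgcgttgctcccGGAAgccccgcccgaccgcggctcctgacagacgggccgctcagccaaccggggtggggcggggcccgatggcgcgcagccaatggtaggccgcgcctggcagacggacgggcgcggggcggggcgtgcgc
BRAF upstream, chr7:140624730-140624929: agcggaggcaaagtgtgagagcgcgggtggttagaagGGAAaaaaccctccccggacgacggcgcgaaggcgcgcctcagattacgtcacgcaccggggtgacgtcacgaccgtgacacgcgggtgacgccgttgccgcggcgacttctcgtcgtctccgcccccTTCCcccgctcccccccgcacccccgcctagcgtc
BRAF exon 1, chr7:140624358-140624387: ggaccctgccaTTCCGGaggaggtgagtgc
MAP2K1 upstream, chr15:66679175-66679249: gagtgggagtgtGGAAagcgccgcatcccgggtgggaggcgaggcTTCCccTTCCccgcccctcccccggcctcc
MAP2K2 upstream, in no peak, chr19:4124120-4124319: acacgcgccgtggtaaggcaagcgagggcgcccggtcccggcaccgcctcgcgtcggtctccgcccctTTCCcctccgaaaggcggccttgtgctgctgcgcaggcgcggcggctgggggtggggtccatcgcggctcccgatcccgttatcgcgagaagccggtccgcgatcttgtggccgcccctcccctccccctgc
MAP2K2 intron 3, chr19:4105034-4105093: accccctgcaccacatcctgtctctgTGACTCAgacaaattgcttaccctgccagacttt
MAPK3 intron 1, in no peak, chr16:30134331-30134360: gtgagggggcgTTCCGGgggagggggtgcc

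HRAS encodes a small membrane-bound GTPase that switches the cascade on. The gene (ENSG00000174775.18, chr11:532242-537321, minus strand) is the shortest of the 6, at 5.08 kb, and was covered by 2 peaks. The wider one, chr11:535343-538282, was 2940 bp wide, which exceeded 97.1% of the peaks in the list. It spanned the canonical TSS at position 535576, reached 2706 bp upstream and 233 bp downstream of it, and covered 5 of the 9 annotated HRAS TSSs. Its midpoint lay 1236 bp upstream of the canonical TSS and 475 bp from another start, at 537287, so that it only just met the distance used here for a TSS. The same peak also covered the canonical TSS of LRRC56, a gene of the opposite strand whose nearest start is at -1951 bp from that of HRAS, and the list cannot tell to which of the divergent starts the signal belonged.

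The other HRAS peak lay inside the gene. It spanned chr11:533470-535253 (1784 bp), touched exons 2, 3 and 4 of the 6 exons of the canonical transcript, and had its midpoint in exon 2, which is 14 bp from the start of the alternative transcript HRAS-202. A gap of 89 bp separated both peaks, and HRAS counts as having 1 peak if peaks within 200 bp are joined. Over all protein-coding genes, 5.43% (5.13 to 5.75%) had 2 or more peaks at a TSS. The body of HRAS held 3.94 peaks per 10 kb, against 0.136 over all protein-coding gene bodies pooled, the highest density among the 6 genes. Both of its peaks were at a TSS. In a gene of 5.08 kb, 1 peak also gives a higher density than in one of the median length, 27.2 kb.

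NRAS encodes a GTPase of the same family and had the simplest pattern. The gene (ENSG00000213281.5, chr1:115247090-115259392, minus strand, 12.3 kb) has 1 annotated transcript of 7 exons. Its only peak, chr1:115259003-115259658, was centred 62 bp downstream of the TSS in exon 1 and reached 266 bp upstream and 389 bp downstream. With 656 bp it was narrow, since the median was 1290 bp (quartiles 950 and 1750 bp) over the 10376 peaks at a TSS of a protein-coding gene. Narrow as it was, it held 2 copies of CCGGAA, on opposite strands, both in the 5′ UTR part of exon 1. The copy on the strand of the gene, at chr1:115259383-115259388, extends to the full site CCGGAAGT and lies 7 bp from the TSS. The other, at chr1:115259344-115259349, lies 46 bp from the TSS and 16 bp from the centre of the peak. NRAS was the only one of the 6 promoters with CCGGAAGT, a site found in 11.6% of promoters whose canonical TSS lay in a peak (11.0 to 12.2%, n = 10378) and in 1.23% of the others (1.03 to 1.48%, n = 9484).

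BRAF encodes a RAF kinase, a direct target of activated RAS. It is the longest of the genes (ENSG00000157764.14, chr7:140419127-140624729, minus strand, 206 kb, 21 transcripts), and its only peak was at its 5′ end. The peak, chr7:140623790-140625083, was 1294 bp wide, covered 10 of the 19 annotated TSSs, and was centred 293 bp downstream of the canonical TSS in exon 1. No peak had its midpoint in the remaining length of the gene, so that the density was 0.0486 peaks per 10 kb, below the 0.136 over all gene bodies. The peak held 1 CCGGAA, at chr7:140624371-140624376 in exon 1, 63 bp from its centre on the side away from the TSS. It also held the full cyclic AMP response element TGACGTCA at chr7:140624823-140624830, at -97 bp from the TSS, which is visible in lower case in the BRAF upstream line. That element was found in 4.65% of the peaks at a TSS (4.27 to 5.08%) and in 2.83% of all promoters (2.61 to 3.07%), and among the 6 promoters it was in that of BRAF only.

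MAP2K1 encodes MEK1, the kinase that RAF activates. The gene (ENSG00000169032.11, chr15:66679175-66783994, plus strand, 105 kb) had 2 peaks in its body. The promoter peak, chr15:66678822-66680335 (1514 bp), was centred 328 bp downstream of the canonical TSS in exon 1 and reached 428 bp upstream and 1085 bp downstream. It also lay at a start of TIPIN, a replication fork gene transcribed in the opposite direction, whose nearest annotated TSS is at -166 bp from that of MAP2K1. This peak held 20 copies of GGAA but no CCGGAA, whereas 6228 of the 10376 peaks at a TSS held that longer site (59.1 to 61.0%).

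The other MAP2K1 peak was the only peak in the 6 genes that lay in an intron away from any TSS of the gene. It spanned chr15:66775365-66775765 in intron 6, 96.3 kb from the canonical TSS and 1655 bp from the nearest annotated start, that of a retained intron transcript. At 401 bp it was narrower than all but 9.65% of the list. Its sequence was poor in CpG, with a ratio of observed to expected CpG of 0.0385 against 0.792 in the promoter peak, and it held 5 copies of GGAA and neither CCGGAA nor the AP-1 motif. An intronic peak more than 500 bp from a TSS of the gene was found in 20.1% of all protein-coding genes (19.5 to 20.6%), so 1 of 6 genes is near the share of all genes.

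MAP2K2 encodes MEK2, the close relative of MEK1, and its peak lay elsewhere. The gene (ENSG00000126934.15, chr19:4090319-4124119, minus strand, 33.8 kb) had no peak at its canonical TSS and 1 peak, chr19:4104698-4105343 (646 bp), in intron 3. The edge of that peak was 18.8 kb from the canonical TSS, and 31.9% of all genes had a canonical TSS at least as far from a peak. It was counted at a TSS because its midpoint was 230 bp from 4104790, the start of an alternative transcript without a defined coding sequence, and it leaves the count when only starts of coding transcripts are used. A peak at another TSS together with none within 500 bp of the canonical one was found in 7.03% of all genes (6.68 to 7.40%) and in both HRAS and MAP2K2 here, although in HRAS the peak did cover the canonical TSS. The intron 3 peak held 2 copies of GGAA, no CCGGAA, and 1 copy of the AP-1 motif, at chr19:4105061-4105067, which was 44 bp from its centre. AP-1 is the dimer of FOS and JUN proteins, and its motif was found in 22.9% of the peaks at a TSS (22.1 to 23.7%). The share over intronic peaks, which this peak resembles by position, was not counted.

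MAPK3 encodes ERK1, the kinase at the end of the cascade. The gene (ENSG00000102882.12, chr16:30125426-30134827, minus strand, 9.40 kb) had no peak in its body or at any of its 14 annotated TSSs, a state shared with 37.5% of all protein-coding genes (36.9 to 38.2%). The nearest peak, chr16:30107147-30108203, lay at the start of YPEL3, with its edge 26.3 kb from the canonical TSS of MAPK3, a distance reached or exceeded by 28.9% of all genes. Of the 50-base stretches in the kb around the TSS, 100% occurred once in the genome for MAPK3 (952 of 952) and 99.4% for MAP2K2 (946 of 952), and over the gene bodies 96.7% and 93.5%. The stretches have the length of the authors' reads, which were kept only if they had a single locus, and the part of mapping in the lack of a peak was not tested.

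The bodies of the 6 genes held 7 peaks in all, 2 each in HRAS and MAP2K1, 1 each in NRAS, BRAF and MAP2K2, and none in MAPK3. A peak in the body was found in 5 of the 6 genes and in 53.4% of all protein-coding genes (52.8 to 54.1%), for which the mean was 0.931 and the median 1 peak per gene. The number did not follow length, as the shortest and one of the longest genes had 2 peaks and the 206 kb of BRAF held 1.

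The 501 bp at the canonical TSS were then searched for short motifs on both strands, in the 4 genes with a peak there and in the 2 without. The core GGAA, the letters common to ETS factors, overlaps every CCGGAA and was present in all 6. It occurred 7 times in BRAF and in MAP2K1, 6 times in NRAS, 2 times in HRAS and in MAPK3, and 1 time in MAP2K2. It was about as frequent in both kinds of promoter: 98.9% of the promoters with the canonical TSS in a peak and 98.3% of the others held at least 1 copy. The longer site CCGGAA was found 2 times in NRAS, 1 time in HRAS and 1 time in MAPK3, and not in BRAF, MAP2K1 or MAP2K2. Over all genes it was in 42.3% of promoters with the TSS in a peak (41.3 to 43.2%) and in 13.9% of those without (13.3 to 14.7%). In the 6 genes it was in 2 of the 4 promoters with the TSS in a peak and in 1 of the 2 without, counts too small to set against those shares. The copy in MAPK3 was at chr16:30134344-30134349 in intron 1, 195 bp from its TSS. A match says only that these letters are in the window.

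**Figure D2:**
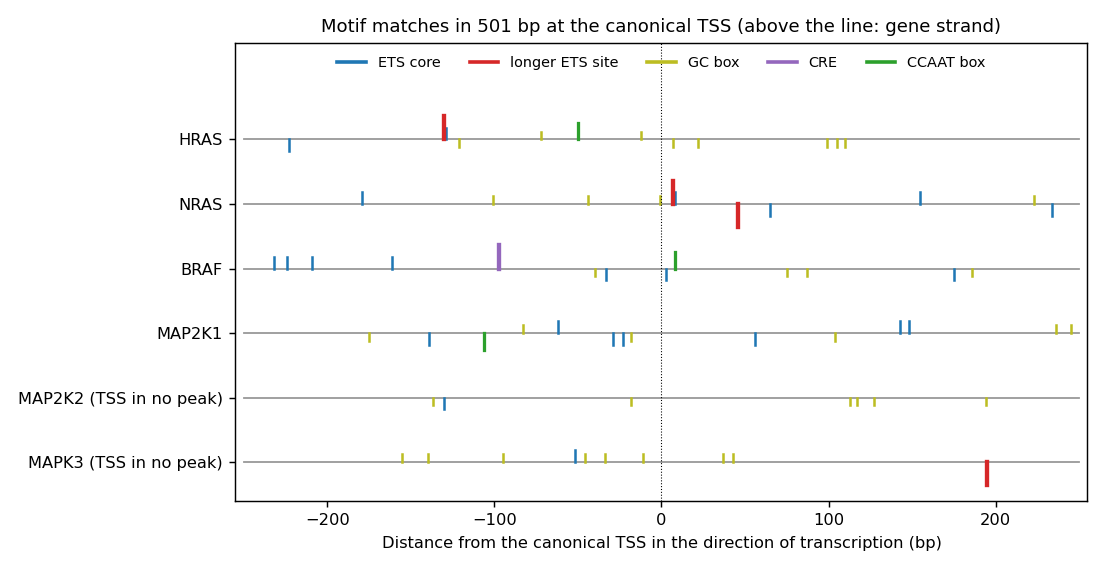
Motif matches in the 501 bp at the canonical TSS of each gene, in bp in the direction of transcription. Ticks above a line are on the strand of the gene and those below it on the opposite strand, for the ETS core (GGAA), the longer ETS site (CCGGAA), the GC box (GGGCGG), the cyclic AMP response element (CRE, TGACGTCA, a palindrome drawn above the line) and the CCAAT box. The longer ETS site is seen in NRAS (2 ticks), HRAS (1) and MAPK3 (1), and GC boxes in all 6 genes.

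GC boxes (GGGCGG, the motif of SP and KLF factors) numbered 8 in HRAS, 6 in MAP2K1, 4 in NRAS, 4 in BRAF, 6 in MAP2K2 and 8 in MAPK3. At least 1 was found in 86.5% of promoters with the TSS in a peak (85.8 to 87.1%) and in 51.3% of those without (50.3 to 52.3%). The GC content was 81.0% in HRAS, 78.2% in MAP2K2, 77.6% in MAPK3, 74.1% in BRAF, 72.1% in MAP2K1 and 54.7% in NRAS, against a median of 67.7% where the TSS was in a peak and 59.1% where it was not. The ratio of observed to expected CpG was 0.995 in MAP2K2 and 0.868 in MAPK3, which is above the median of 0.453 over promoters in no peak and above that of 0.852 over promoters in a peak. Of the 13144 promoters with a GC content of at least 60%, 65.9% had the TSS in a peak (65.0 to 66.7%). The promoters of HRAS, BRAF, MAP2K1, MAP2K2 and MAPK3 are among them, and 3 of those 5 had a peak there. The CCAAT box (the motif of NF-Y) occurred 1 time each in HRAS, BRAF and MAP2K1 and not in the other 3, and was found in 41.3% of promoters in a peak and 45.8% of the others. No match to the NRF1 motif or the AP-1 motif was found in any of the 6 promoter windows, and over all promoters these were present in 1.82% (1.64 to 2.01%) and 7.44% (7.08 to 7.81%).

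The peaks themselves, being wider than these windows, held more matches. The wide HRAS peak held 25 copies of GGAA and 3 of CCGGAA, at -130, -594 and -1938 bp from the canonical TSS. The first of these is in the HRAS upstream line, where its last 4 bases are in capitals. The HRAS peak inside the gene held 16 copies of GGAA and 1 of CCGGAA, in exon 3. The BRAF peak held 14 copies of GGAA and the NRAS peak 10. Of the 6 peaks at a TSS of the 6 genes, 4 held CCGGAA (both of HRAS and those of NRAS and BRAF), close to the share over all TSS peaks given above. The AP-1 motif was found 1 time in the wide HRAS peak, at chr11:538254-538260, and 1 time in the MAP2K1 promoter peak, at chr15:66679936-66679942, besides the MAP2K2 peak.

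The regions around the 6 genes held 44 peaks in the gene bodies and 100 kb on either side. HRAS had 16, MAPK3 8, MAP2K1 and MAP2K2 6 each, and NRAS and BRAF 4 each. The median was 6 for the 6 genes and 4 for all protein-coding genes (quartiles 2 and 8). A count of 16 or more was found in 4.23% of all genes (3.96 to 4.52%), and one of 4 or more, which all 6 genes reached, in 55.6%. No 2 of the regions overlap, so no peak was counted more than once.

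**Figure D3:**
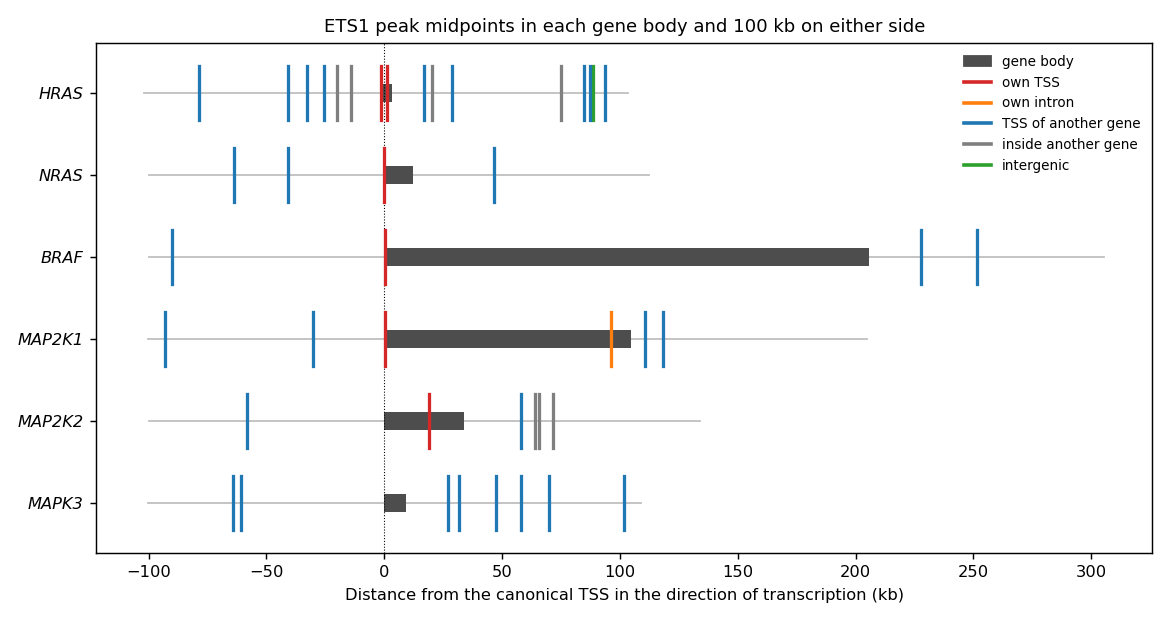
Midpoints of ETS1 peaks (vertical lines) in the body of each gene (dark bar) and 100 kb on either side (grey line), in kb from the canonical TSS in the direction of transcription, coloured by position. Most lines are blue, at the TSS of another gene (29 of 44); MAP2K1 has the single peak in an intron of its own away from a TSS, and the red line of MAP2K2 is at an alternative start 19.1 kb inside the gene.

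Most of these peaks belonged by position to neighbouring genes. A TSS of the gene itself was counted first, and was within 500 bp for 6 of the 44 (13.6%, 6.40 to 26.7%), among them the MAP2K1 promoter peak that also lay at a start of TIPIN. A TSS of another gene was within 500 bp for 29 more (65.9%, 51.1 to 78.1%), and 7 lay inside another gene (15.9%). Of the remaining peaks, 1 was in the intron of MAP2K1 and 1 was intergenic, at chr11:446827-447366 in the HRAS region, 1172 bp from the nearest TSS, that of PTDSS2. The same division was not counted over the regions of all protein-coding genes. These shares are therefore not shown to be particular to the 6 genes. The 44 peaks come from 6 regions, 16 of them from that of HRAS, and are not independent. The intervals do not cover differences between regions. Of the 45 other protein-coding genes in the regions, 29 had a peak at a TSS, where the share of all protein-coding genes was 53.1%.

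The HRAS region is gene-rich, with 11 other protein-coding genes, of which 7 had a peak at a TSS. These were ANO9, PTDSS2, RNH1, LMNTD2, RASSF7, PHRF1 and IRF7, the last a regulator of interferon genes with the widest peak of the region (3976 bp, wider than 99.2% of the list). Another peak lay at the start of MIR210HG, the host transcript of a microRNA induced by hypoxia. HRAS had 1.33 peaks per protein-coding gene of its region, itself included, where the median over all genes was 0.778. In the other regions the ratio was 0.857 for MAP2K1 and MAP2K2 and 0.533 for MAPK3, and NRAS and BRAF each had 4 peaks for 5 genes.

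In the NRAS region the peaks outside the gene included those at the starts of DENND2C and SIKE1, and AMPD1 had none. In the BRAF region peaks lay at ADCK2, NDUFB2 and MRPS33, the last 2 encoding mitochondrial proteins, and DENND2A had none. The MAP2K1 region had peaks at DIS3L, TIPIN, SNAPC5 and, with 1 peak over divergent starts, RPL4 and ZWILCH, and none at LCTL. That left 1 gene without a peak in each of these 3 regions.

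The MAP2K2 region differed in that 4 of its 6 peaks lay in 1 neighbour, ZBTB7A, which encodes a zinc finger repressor. The peak at the ZBTB7A start was 3734 bp wide (wider than 98.9% of the list), and 3 more lay within that gene, between 64.0 and 71.5 kb from the MAP2K2 start. The last peak was shared by the starts of SIRT6 and ANKRD24, and the other 3 protein-coding genes of the region had none at a TSS. MAPK3 lies in the region with most protein-coding genes, 14 besides itself. All 8 peaks there were at a TSS of another gene, among them ALDOA, an aldolase of glycolysis (2801 bp), TBX6, a T-box factor (2944 bp), PPP4C, YPEL3, DOC2A, TLCD3B and, with 2 peaks, CORO1A. The neighbours without one were C16orf92, GDPD3, BOLA2B, SLX1A, SULT1A3 and NPIPB13. Of these, GDPD3 is the nearest to MAPK3, at 9683 bp, so that MAPK3 and GDPD3 form a stretch without a peak between YPEL3 and CORO1A. How much of the sequence at the neighbours without a peak occurs once in the genome was not counted. Only reads with a single locus were kept, so the part of mapping there is unknown.

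**Figure D4:**
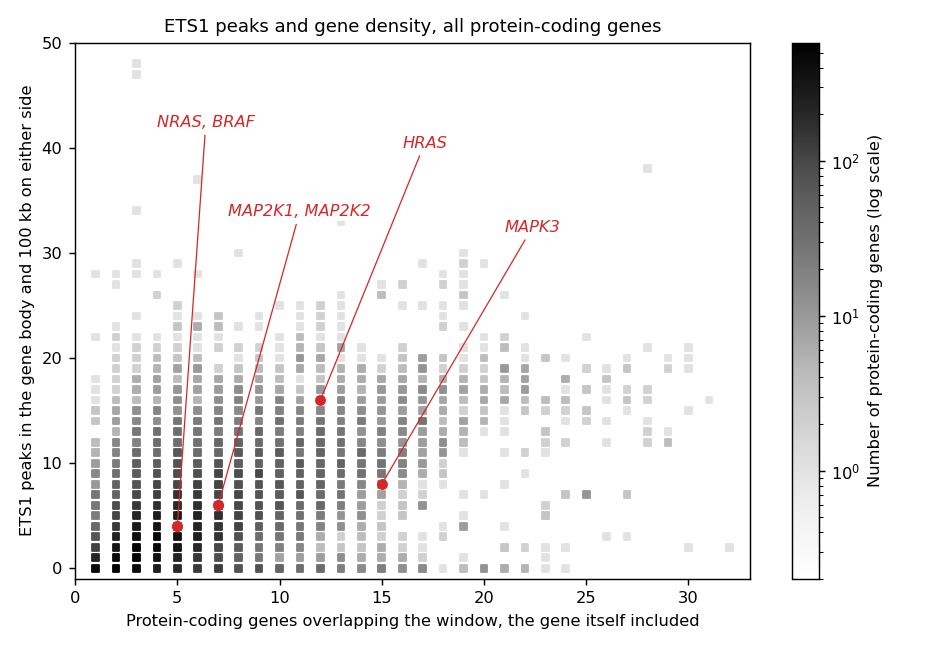
Number of ETS1 peaks in a gene body and 100 kb on either side against the number of protein-coding genes overlapping that region, for all 20163 protein-coding genes (grey squares, darker where more genes coincide, log scale) and the 6 cascade genes (red points). HRAS (12 genes, 16 peaks) lies high for its gene number, and MAPK3 (15 genes, 8 peaks) lies within the spread of genes of its number.

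Over all protein-coding genes the number of peaks in this region rose with the number of protein-coding genes in it (Spearman's rho 0.512 across 20163 genes, whose regions overlap and which are not independent). The median was 5 coding genes per region (quartiles 3 and 8). The 5 of NRAS and BRAF, the 7 of MAP2K1 and MAP2K2, the 12 of HRAS and the 15 of MAPK3 are therefore at or above it, and the counts within 100 kb are given with this in view.

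Another 37 genes that act with the cascade were counted by role in the same way. A peak at a TSS was found for 32 of them, where the share of all genes was 53.1%. An intronic peak was found for 11, with 27 such peaks, where the share of all genes was 20.1%. The 37 genes run from 5.15 kb (SPRY2) to 516 kb (KSR2) in length, and the median over all genes is 27.2 kb. Lengths were not matched, so the part of gene length in these counts was not tested. Among the exchange factors and adaptors that load RAS, such as SOS1 and GRB2, 7 of 9 had a peak at a TSS and 2 an intronic one. All 5 GTPase activating proteins, which switch RAS off, had a peak at a TSS, and 2 held 8 intronic peaks between them. Of the scaffolds and RAF regulators 8 of 10 had a peak at a TSS, of the kinases and factors downstream of ERK 6 of 6, and of the feedback inhibitors 6 of 7. With the canonical TSS only, the count was 26 of 37, where the share of all genes was 46.7%. By role in the same order it was 7 of 9, 4 of 5, 8 of 10, 4 of 6 and 3 of 7. The genes without a peak at any TSS, chosen after their values were seen, were RASGRP1, RASGRF1, KSR2, PEBP1 and SPRED1. The canonical TSS of SPRED1 was nevertheless inside a peak. The number of peaks in the body or within 100 kb ranged from 1 to 15 over the 37, with a median of 5. Over all protein-coding genes the median was 4 (quartiles 2 and 8).

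The 3 genes with most peaks in the body were DAB2IP with 8, SPRED2 with 7 and KSR1 with 5. DAB2IP encodes a GTPase activating protein, and 7 of its peaks were intronic while its canonical TSS was 14737 bp from the edge of a peak. SPRED2 encodes an inhibitor of the activation of RAF by RAS, and 6 of its peaks were intronic. KSR1 encodes a scaffold that brings RAF, MEK and ERK together, and all 5 of its peaks in the body were intronic. A further peak was at its canonical TSS, with its midpoint outside the body. The rest of the pathway genes had 0 to 3 peaks in the body and the 6 cascade genes 0 to 2. The genes differ in length, with 218 kb for DAB2IP, 122 kb for SPRED2 and 170 kb for KSR1, and BRAF with 206 kb held 1 peak.

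**Figure D5:**
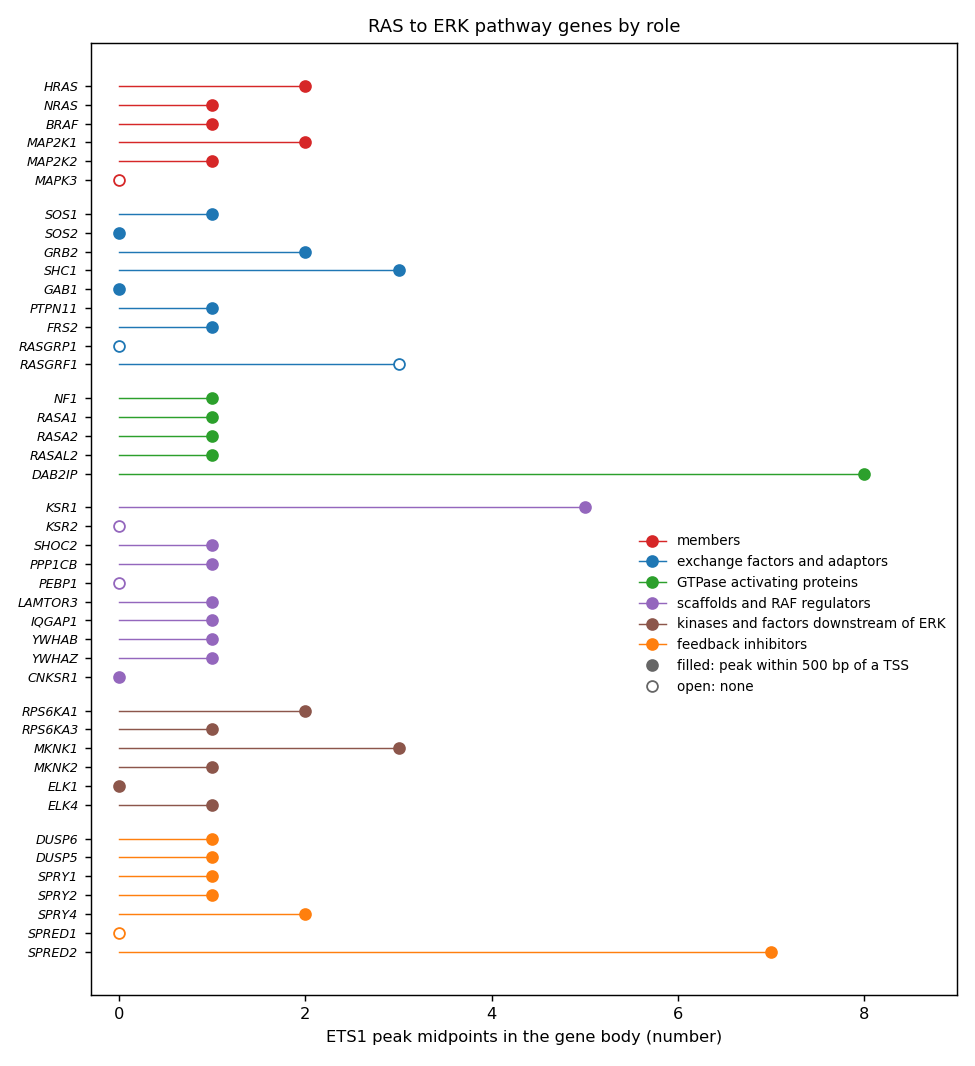
Number of ETS1 peak midpoints in the gene body (x axis) for the 6 cascade genes, called members in the key, and 37 other genes of the pathway, grouped and coloured by role. Filled points have a peak within 500 bp of a TSS and open points have none. DAB2IP (8), SPRED2 (7) and KSR1 (5) stand to the right, and MAPK3 is the open point among the 6.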

How the data were processed

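The authors' ChIP-Seq libraries from SCC25 were sequenced as single-end reads of 50 bases. As the methods and the submitters' processing notes give it, reads were mapped to hg19 with Bowtie 1.1.1, keeping those with 1 locus, and replicates were pooled with SAMtools 1.3. Peaks were called with MACS2 against a merged input on samples, pseudo-replicates and pooled reads, and the optimal set of the IDR procedure, which retains peaks of reproducible rank, was deposited. It is 1 list in 3 columns, chromosome, start and end, with no unit of signal, and all of it belongs to the pool of the 3 samples. Starts were moved to 1-based positions. No peak passed a chromosome end on any of 24 GRCh37 chromosomes, and 9 mitochondrial peaks were left out.

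A peak was placed by its midpoint. Position was taken as TSS (within 500 bp), then proximal (to 1500 bp), exon, intron, inside another gene or intergenic, with GENCODE release 44 lifted to GRCh37. Motifs were matched as letters on both strands. No test was run, since 1 pooled list has no replicates, and counts stand beside the share of all protein-coding genes. All 6 genes are described with each peak in the body. Of the neighbours, those with a TSS at a flanking peak are named, and of the 37 pathway genes the 3 with most peaks in the body. Neighbours without a peak, and LRRC56, were picked out with their values in view. One neighbouring gene is not reported here. The genes, lists and rules were chosen with earlier results of these data known. Code for placing peaks and finding motifs, tested on simulated data, found 200 of 200 planted peaks and 200 of 200 planted sites. The work used Python 3.11.15, numpy 2.4.6, scipy 1.17.1 and matplotlib 3.10.9.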

Additional observations from a re-analysis of the deposited data

How the results depend on the processing

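No paired analysis was possible because the list pools all 3 samples, carries no replicate numbers and allows no test, and for the same reason no replicate was left out. Of 43 alternatives for 8 results, 22 left the value within a margin and 21 moved it past that margin, which was 1.5 times the value for a count or a median and the 95% Wilson interval for a share. Of these alternatives, 5 were added after seeing the data.

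The 5 genes with a peak at a TSS became 3 in the first 13485 peaks of the list (HRAS, NRAS and MAP2K2), 3 with peaks of at least the median width of 969 bp (HRAS, BRAF and MAP2K1) and 3 with the canonical TSS only (NRAS, BRAF and MAP2K1). They became 4 at 250 bp, where MAP2K1 was lost. They also became 4 with coding transcripts only and with the canonical TSS inside a peak (added), where MAP2K2 was lost. What the order of the list stands for is not given in the sources used here. MAPK3 was without a peak at a TSS in every alternative, including 1500 bp. The share of all genes, 53.1%, became 57.4% if 1 bp of the peak sufficed, 34.8% in the first part of the list, 41.1% with the wider peaks, 58.1% at 1500 bp, 44.6% at 250 bp, 46.7% with the canonical TSS only, 51.3% with coding transcripts only, and 52.2% with the canonical TSS inside a peak (added). The 7 peaks in gene bodies became 3 in the first part of the list and 4 with the wider peaks, and the gene with an intronic peak, MAP2K1, was lost in both (0). The 44 peaks within 100 kb became 26 in the first part of the list and 14 within 20 kb, while the median over all genes went from 4 to 2 in the first part, 2 with the wider peaks and 1 within 20 kb. The 5 genes whose TSS peak holds GGAA became 3 with CCGGAA. Each fall comes from an alternative that by construction uses fewer peaks, fewer starts, a shorter reach or a longer motif. A peak that is lost in this way is not shown to be weaker, since the list holds no height, and a gene without a peak is one at which none reached the authors' threshold, not one shown to lack ETS1.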
